A study of Mus musculus with 44 samples.

Results

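BXD28 is a recombinant inbred mouse strain, and 2 of the 44 arrays of the study carry its name. They were set against the 22 arrays of 11 other strains (BXD1, BXD2, BXD5, BXD9, BXD14, BXD16, BXD18, BXD19, BXD21, BXD34 and BXD39) whose titles hold the same array code, M7SS020806. These 24 arrays are called series B here. Each strain has 2 arrays. The remaining 20 arrays, of 10 strains, hold another code and did not enter the main contrast. They did enter the normalization, the choice of probe sets and the estimate of the spread between arrays of a strain. All groups shared one preparation: females aged 3 to 6 months, untreated as far as the labels say, with marrow of femurs and tibiae from 3 mice pooled for each sample. Cells negative for a lineage antibody panel and positive for Sca-1 and c-kit were sorted into lysis buffer, and total RNA was hybridised to Affymetrix MG_U74Av2 arrays, which have 1 colour. The study's title names the genes and loci that control how blood stem cells function.

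BXD strains were bred by inbreeding the descendants of C57BL/6 and DBA/2 parents, so each strain carries a fixed mosaic of both parental genomes. A gene whose transcript level depends on a nearby parental variant therefore tends to take one of a pair of levels across strains. The sorted population, known as LSK cells, holds the blood stem cells and the earliest multipotent progenitors of the marrow. Immediate early genes, a group that recurs below, are transcribed within minutes of a stimulus, without new protein synthesis, through factors such as serum response factor and CREB bound at their promoters. They include the AP-1 genes Fos and Jun, and are also induced when tissue is dissociated and sorted.

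The sort markers were looked at first, and as all strains shared the sort, they do not check the strain label. Kit, the stem cell factor receptor that the sort selects on, had log2 intensities of 10.09 and 9.54 on the BXD28 arrays, against 9.19, 9.77 and 10.22 as the lowest, median and highest of the 22 other arrays. Cd34, a sialomucin of progenitors, had 9.19 and 8.59 in BXD28 and 7.83, 8.74 and 9.31 in the others, and Flt3, a receptor of multipotent progenitors, had 10.87 and 10.93 against 9.90, 10.95 and 11.50. All 3 lay within the other strains' range, and Ly6a, which encodes Sca-1, was not analysed here. Xist, the transcript of the inactive X chromosome in females, was at 11.89 and 11.28 in BXD28, against 10.06 to 11.92. The BXD28 arrays correlated with each other at r = 0.652 over 208 probe sets, centred on the series mean, where the other 11 strains had r of 0.522 to 0.912. These probe sets were chosen without BXD28, as differing among strains within the array codes, and both codes entered that choice. Over all 7453 centred probe sets that r was -0.0825 in BXD28 and -0.151 to 0.330 in the others, and it was below 0 in 4 of the 12 strains. There the first BXD28 array correlated best with an array of BXD5, and the second with an array of BXD9. Only in BXD19 and BXD2 did both arrays of a strain correlate best with each other. The first BXD28 array had 15.98% of its probe sets at the floor and the second 12.534%, against 9.322% to 15.948% in the others, so the first lies just beyond the others' range. The log2 ratio of the 3' to the 5' Gapdh control probe set, a sign of RNA integrity, was 3.545 and 2.791, against 2.648 to 4.204.

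Few transcripts set BXD28 apart. Of 7453 probe sets tested, 16 (0.215%) passed an adjusted p of 0.05 in limma's test with Benjamini-Hochberg adjustment: 4 were higher in BXD28 (0.0537%) and 12 were lower (0.161%). At an unadjusted p under 0.05 there were 301 (4.04%). Among genes represented by their brightest probe set, 10 of 5624 passed (0.178%), with Spg21, Ctse and the probe set assigned to Mir686 higher (0.0533%), and Erdr1, Hars, Pdxdc1, Cnn3, Slc25a44, Creg1 and Zfp36 lower (0.124%). The same contrast made for each of the other 11 strains gave 10 to 126 calls, with a median of 25, so BXD28 lay on the low side of its series. These p-values measure the spread between arrays of a strain, which may be technical, since the labels do not name the pools behind the arrays. When the 12 strain means took the place of arrays, with BXD28 as 1 mean against 11, limma called 0 probe sets, the smallest adjusted p was 0.999, and 135 (1.81%) had an unadjusted p under 0.05.

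**Figure D1:**
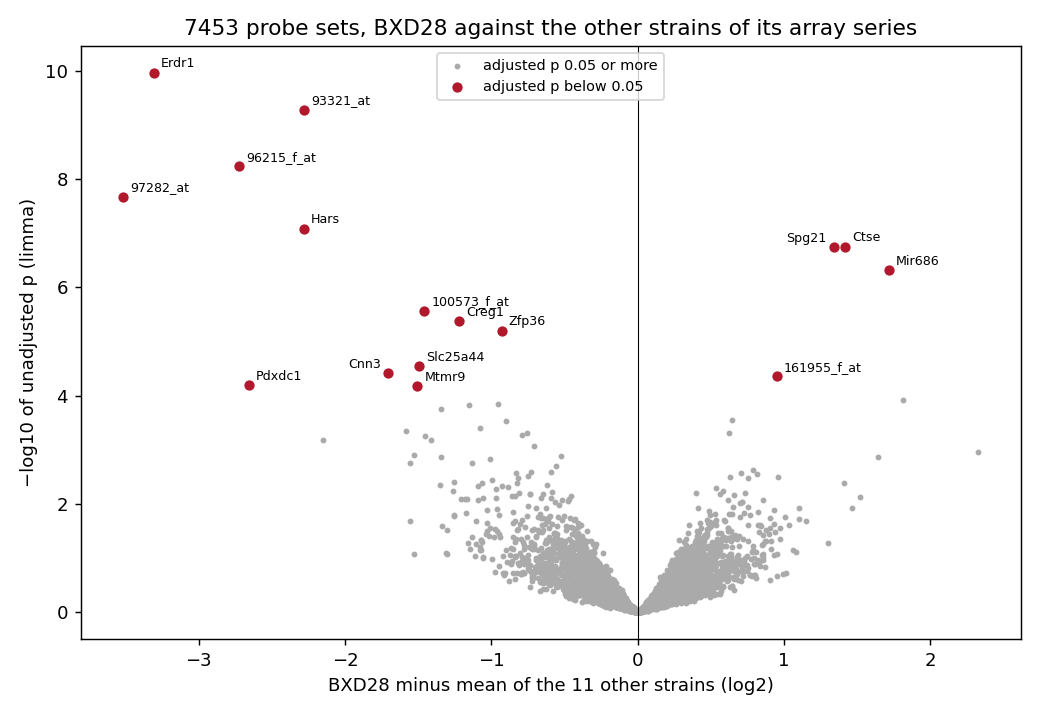
Difference of BXD28 from the mean of the 11 other strains (log2, x axis) against −log10 of the unadjusted p from limma (y axis) for 7453 probe sets, with the 16 that passed an adjusted p of 0.05 in red and named (Mir686 stands for the probe set assigned to it). The lower probe sets reach -3.52 and the higher ones 1.72.

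All 16 called probe sets had both BXD28 arrays on one side of the other strains' mean, and 0 had both arrays outside the range of all 22 other arrays. BXD28 had the lowest of 12 strain means in 9 of them and the highest in 2, where over all probe sets it had the lowest in 5.33% and the highest in 6.33%, and the call itself bears on both counts. In a fit that left BXD28 out and set strains against each other within each array code, 15 of the 16 passed an adjusted p of 0.05, where 208 of all 7453 (2.79%) did, and Slc25a44, with an adjusted p of 0.33, did not. Both fits take the spread between arrays of a strain from nearly the same arrays, so this count is not independent of the calls. Without the first BXD28 array 9 of the 16 calls remained, and without the second 9 did. Erdr1, Hars, Ctse, 93321_at, 96215_f_at and 97282_at were called in both of these fits, and the other 10 lost their call in at least 1 of them. In the plot of the called probe sets by array, several split the 11 other strains into a high and a low set, with BXD28 in one of them.

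**Figure D2:**
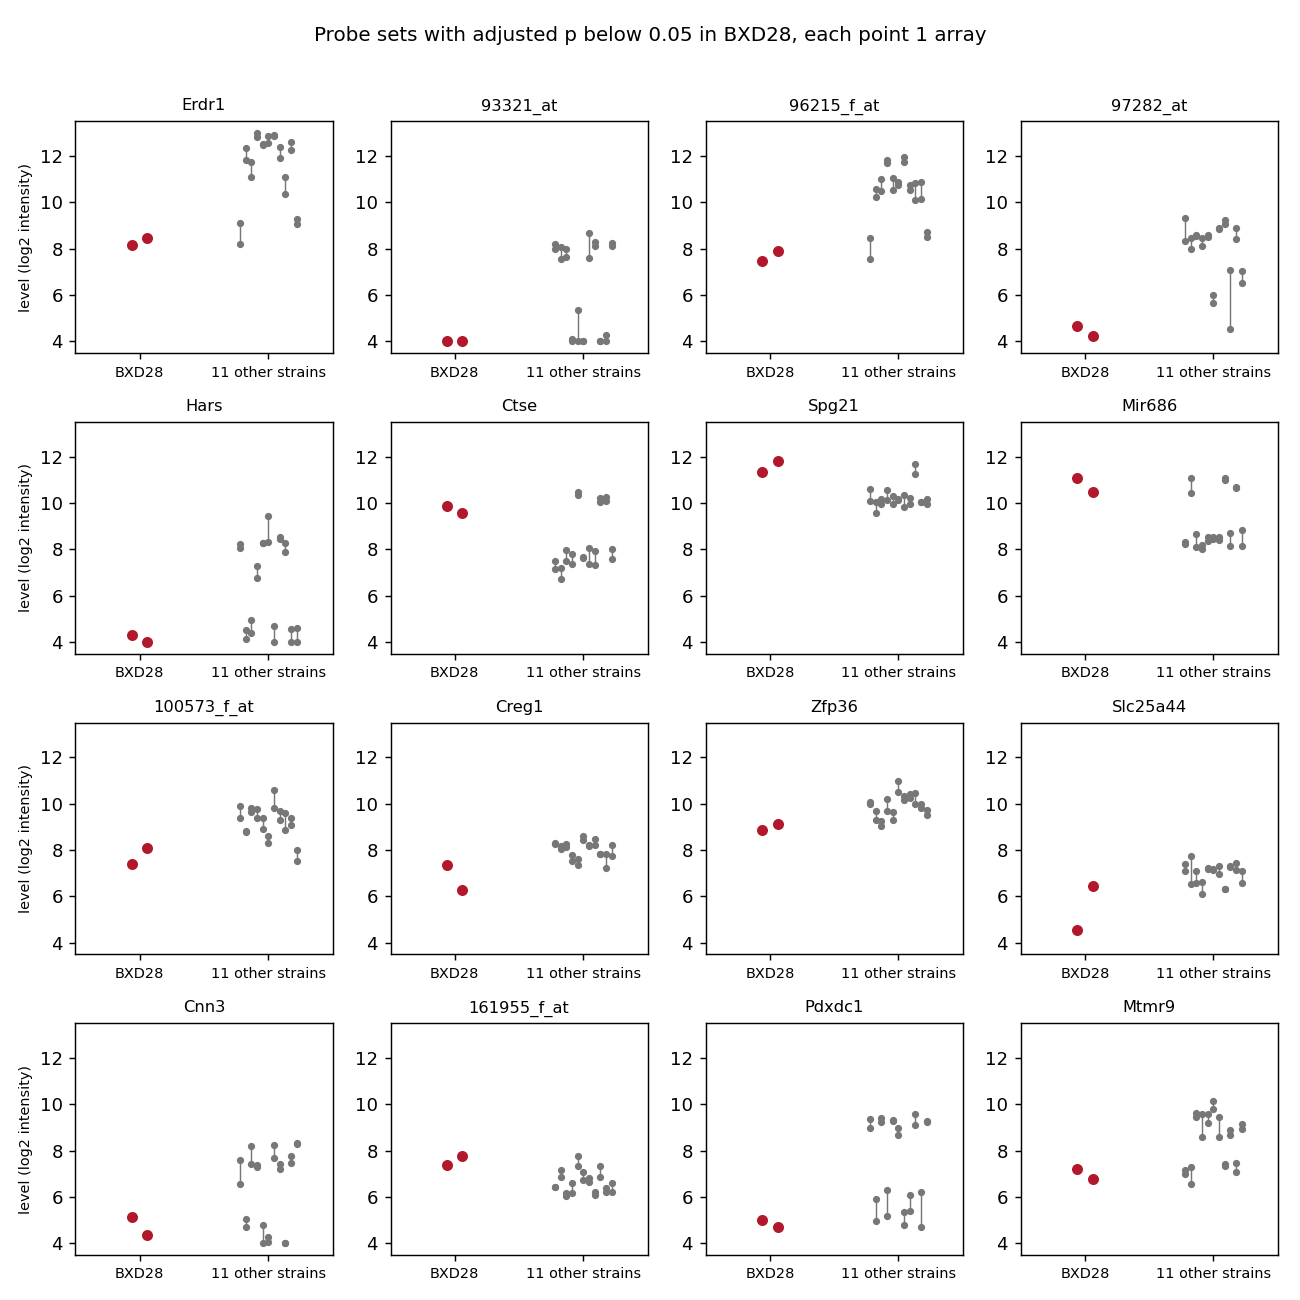
Level (log2 intensity, y axis) of the 16 called probe sets on the 2 BXD28 arrays (red) and on the 22 arrays of 11 other strains (grey, the 2 arrays of a strain joined by a line). Hars, Pdxdc1, Cnn3 and Ctse show a high and a low set of strains, and Spg21 shows BXD28 level with a single other strain.

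Among the 3 genes higher in BXD28, Spg21 had the fewest strains near it. Spg21, on chromosome 9, encodes maspardin, a protein that binds the CD4 receptor and is lost in an inherited human spastic paraplegia. Its probe set had 11.36 and 11.80 in BXD28, against 9.59, 10.12 and 11.67 in the others, a difference of 1.34 ± 0.19 on the log2 scale (SE), or 2.53-fold, with a limma adjusted p of 0.000193. Of the other strains only BXD34, at a mean of 11.47, lay within 1 log2 unit, and the next highest was BXD9 at 10.34. Without the second BXD28 array the difference was 1.12 with an adjusted p of 0.148, and without the first it was 1.56 with an adjusted p of 0.00294. The suffix _f_at of this probe set marks probes that match more than one transcript of a family, so its assignment to a single gene is uncertain.

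Ctse, on chromosome 1, encodes cathepsin E, an intracellular aspartic protease of immune cells and epithelia. Its level was 9.86 and 9.55 in BXD28 and 6.72, 7.72 and 10.46 in the others, a difference of 1.42 ± 0.20 or 2.68-fold (limma adjusted p = 0.000193). BXD34, BXD5 and BXD39 stood at a like level, and the other 8 strains lay below both BXD28 arrays. A pair of dimmer Ctse probe sets gave differences of 0.27 ± 0.48 and 0.50 ± 0.29, neither of which passed, so the call rests on the brightest of 3.

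The probe set assigned to Mir686, on chromosome 14, had 11.07 and 10.47 in BXD28, against 8.02, 8.53 and 11.08 in the others. The difference was 1.72 ± 0.26, or 3.29-fold, with a limma adjusted p of 0.000452. Without the first BXD28 array the difference was 1.42 and the call was lost (limma adjusted p = 0.119). BXD1, BXD5 and BXD21 were within 1 log2 unit of BXD28, and the remaining strains were lower. The annotated Mir686 interval lies inside Psmb5, which encodes a catalytic subunit of the proteasome, and the files do not settle which transcript this probe set reports. The brightest probe set of Psmb5 itself had 9.78 and 8.77 in BXD28, against 7.80, 9.34 and 9.85, a difference of 0.05 ± 0.33.

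Erdr1 showed the smallest p of all probe sets. It lies in the pseudoautosomal region of the sex chromosomes, was named for a secreted factor that raises haemoglobin synthesis in erythroleukaemia cells, and is listed by RefSeq as a transcribed pseudogene. Its brightest probe set had 8.15 and 8.45 in BXD28, against 8.21, 12.31 and 13.01 in the others, a difference of -3.31 ± 0.32, or 9.90-fold lower, with a limma adjusted p of 8.17e-07. BXD18 and BXD14, at means of 8.67 and 9.18, were the other low strains. A second Erdr1 probe set had 8.43 and 8.58 in BXD28, against 8.37, 8.76 and 9.69, a difference of -0.42 ± 0.29 that did not pass (limma adjusted p = 0.999). The unnamed probe set 96215_f_at followed the brighter one, with r = 0.929 over the 11 other strain means. It had 7.48 and 7.92 in BXD28, against 7.54, 10.66 and 11.96, a difference of -2.72 ± 0.32 (limma adjusted p = 1.45e-05), with the same 2 strains near it. The probe sets 98525_f_at of Erdr1 and 96215_f_at bear the suffix described for Spg21, so the assignment of either to a single gene is uncertain.

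Hars, on chromosome 18, encodes the cytosolic histidyl-tRNA synthetase, which charges tRNA with histidine. It had 4.31 and 4 in BXD28, where 4 is the floor set for low intensities, against 4, 7.01 and 9.46 in the others. The difference was -2.28 ± 0.31 with a limma adjusted p of 0.000124. BXD5, BXD14, BXD16, BXD19 and BXD21 shared the low level, and the other 6 strains were all above it, up to a mean of 8.88 in BXD2. Among the 17 tested aminoacyl-tRNA synthetase genes Hars was the 1 called, and the median difference of the list was 0.048, against 0.023 over all genes.

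Pdxdc1, on chromosome 16, encodes a protein with a pyridoxal-dependent decarboxylase domain. Its brightest probe set had 5.01 and 4.71 in BXD28 and 4.71, 8.82 and 9.59 in the others, a difference of -2.66 ± 0.56 (limma adjusted p = 0.0313), and BXD1, BXD5, BXD9, BXD16 and BXD21 shared the low level. The call was lost in 11 of 49 alternatives, among them the fits without either BXD28 array, with adjusted p of 0.254 and 0.842. The dimmer Pdxdc1 probe set ran the other way over strains, with r = -0.869 between both probe sets. In it BXD28 had 7.93 and 7.99, against 4.93, 7.65 and 8.55, a difference of 0.58 ± 0.58, so the transcript as a whole cannot be called lower. Cnn3, an actin-binding calponin on chromosome 3, had 5.13 and 4.35 in BXD28, against 4, 7.35 and 8.31, a difference of -1.71 ± 0.35 (limma adjusted p = 0.0222). BXD2, BXD21, BXD34 and BXD39 were the other low strains, and 5 other arrays lay below both BXD28 arrays. The call was lost in 9 of 48 alternatives, among them a fit without the second BXD28 array, where the difference was -1.31 with an adjusted p of 0.999, and fits without 1 of 6 other strains. Its probe set, 160150_f_at, has the suffix of uncertain assignment too.

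Slc25a44, Creg1 and Mtmr9 completed the lower genes outside the immediate early group. Creg1, a secreted and lysosomal glycoprotein on chromosome 1, had 7.34 and 6.25 in BXD28, against 7.21, 8.14 and 8.59, a difference of -1.22 ± 0.21 (limma adjusted p = 0.00311). Slc25a44, a mitochondrial carrier of branched-chain amino acids on chromosome 3, had 4.53 and 6.44, against 6.12, 7.12 and 7.76, a difference of -1.50 ± 0.30 (limma adjusted p = 0.0179). The BXD28 arrays of these 2 genes lay far apart, and each call depended on the lower array: without it the adjusted p of Creg1 was 0.999 and that of Slc25a44 was 0.836. Mtmr9, a catalytically inactive myotubularin on chromosome 14, was called in the dimmer of its probe sets only, which was picked out after its values were seen: 7.19 and 6.78 in BXD28, against 6.54, 8.79 and 10.14, a difference of -1.51 ± 0.32 (limma adjusted p = 0.0313). Its brightest probe set gave -0.70 ± 0.26, with an adjusted p of 0.864. The call was lost in 9 of 49 alternatives, among them the fits without either BXD28 array.

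Among the remaining called probe sets, 4 have no gene symbol and 1 has several. Probe set 97282_at had 4.67 and 4.23 in BXD28, against 4.53, 8.48 and 9.31 in the others, a difference of -3.52 ± 0.45 (limma adjusted p = 3.98e-05). No other strain mean lay within 1 log2 unit of BXD28, and the nearest were BXD34 at 5.80 and BXD2 at 5.84. The BXD34 arrays lay far apart, at 7.08 and 4.53, and the lower one fell between the BXD28 arrays. Probe set 93321_at, which has several symbols, was at the floor of 4 on both BXD28 arrays, against 4, 7.59 and 8.69 (limma adjusted p = 1.96e-06), and 5 other strains were at or near the floor too. As values at the floor are upper limits, and those of 97282_at lie close to it, no fold is given for either. Probe set 161955_f_at was higher in BXD28 by 0.95 ± 0.19, and 100573_f_at was lower, with a difference of -1.46 ± 0.25. The call of 161955_f_at was lost without either BXD28 array, and that of 100573_f_at without the first.

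No tested neighbour of a called gene passed the test. The 11 called probe sets with 1 symbol lie on 8 chromosomes, and of the 63 tested genes within 3 places of them in the RefSeq gene order, 0 had an adjusted p under 0.05 and 0 an unadjusted limma p under 0.05. Over all 5596 neighbouring pairs, 0 had both members called, and 9 had both members at an unadjusted p under 0.05, a level that 3.89% of all 5624 genes reached.

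Immediate early genes were the list with the lowest median. Zfp36 was the 1 called among 19 tested members of the 24 listed, against 0.124% of genes called lower over the table. At an unadjusted limma p under 0.05, 12 of the 19 were lower, where 2.2% of all genes were, and 1 was higher, where 1.69% were. The BXD28 mean was below that of the other strains in 16 of the 19, against 45.7% of all genes, and the median difference was -0.524, against 0.023.

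Promoters of 3 of these lower genes are shown because, among the 8 with the smallest p that had a promoter in the RefSeq table (Ier2 had none), they hold an element that the signal-driven factors of the background are known to bind. Each is the 250 bases before the transcription start in RefSeq's GRCm38.p6, read 5′ to 3′ on the gene's own minus strand, with the element in capitals. Zfp36 is chr7:28379229-28379478 with a CArG box, the serum response factor element, whose first base is at -58. Btg2 is chr1:134079156-134079405 and Dusp1 is chr17:26508473-26508722, each with the cAMP response element TGACGTCA, at -166 and at -143.
Zfp36: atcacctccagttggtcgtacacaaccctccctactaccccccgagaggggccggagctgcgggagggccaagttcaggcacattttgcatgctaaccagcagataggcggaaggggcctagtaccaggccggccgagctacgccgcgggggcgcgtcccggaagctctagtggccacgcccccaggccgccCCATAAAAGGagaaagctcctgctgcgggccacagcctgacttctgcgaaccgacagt
Btg2: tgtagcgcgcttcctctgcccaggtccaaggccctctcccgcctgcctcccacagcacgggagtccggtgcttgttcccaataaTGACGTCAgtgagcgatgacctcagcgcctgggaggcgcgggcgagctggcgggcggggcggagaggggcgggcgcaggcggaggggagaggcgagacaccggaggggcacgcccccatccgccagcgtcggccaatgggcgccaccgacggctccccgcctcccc
Dusp1: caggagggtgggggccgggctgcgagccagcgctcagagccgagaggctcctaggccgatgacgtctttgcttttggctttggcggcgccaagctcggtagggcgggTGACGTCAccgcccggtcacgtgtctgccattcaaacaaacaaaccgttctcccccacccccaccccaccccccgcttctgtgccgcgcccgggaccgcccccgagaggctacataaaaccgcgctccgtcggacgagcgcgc
In windows that also take in the 50 bases after the start, 17 of the 19 genes had a promoter in the table. On both strands, TGACGTCA occurred in 2 of them (Btg2 and Dusp1), against 2.03% of 27025 genes, and the CArG box in 2 (Egr2 and Zfp36), against 1.81%. The AP-1 element TGANTCA occurred in 0 of the 17, against 8.97% of all, and the Egr element GCGTGGGCG in 0, against 0.707%. TATAAA on the gene strand occurred in 3 (Fos, Gadd45b and Junb), against 9.77%. These matches describe letters in a window and not binding, and these arrays did not measure binding.

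Zfp36, on chromosome 7, encodes tristetraprolin, which binds AU-rich elements of cytokine transcripts and hastens their decay. It had 8.88 and 9.11 in BXD28, against 9.05, 9.995 and 10.96 in the others, a difference of -0.93 ± 0.17 or 1.91-fold lower (limma adjusted p = 0.00424). Both BXD28 arrays lay below 21 of the 22 others, and BXD19, at a mean of 9.14, was the nearest strain. The call was lost without either BXD28 array, with adjusted p of 0.256 and 0.0917, and against all 21 other strains of both array codes, where the difference was -0.55 with an adjusted p of 0.263.

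Of the transcription factors on the list, Jun, an AP-1 subunit, had 7.40 and 5.425 in BXD28, against 5.01, 7.93 and 9.04, a difference of -1.34 ± 0.37 (limma adjusted p = 0.282). Nr4a1, an orphan nuclear receptor, had 10.21 and 10.62, against 9.37, 11.54 and 12.63, a difference of -0.97 ± 0.32. Klf4 and Klf6, zinc finger factors of the Krüppel family, gave -0.75 ± 0.23 and -0.73 ± 0.22. None of these passed the adjusted threshold, and each had BXD28 inside the range of the other arrays. Jun and Klf6 depended on the second BXD28 array. Without the first array Jun gave -2.33 (limma adjusted p = 0.0112) and Klf6 gave -1.30 (limma adjusted p = 0.019), and without the second Jun gave -0.36 and Klf6 -0.165. The AP-1 partners differed in size: Junb gave -0.44 ± 0.19 (and -1.25 ± 0.49 in its dimmer probe set), Fos -0.10 ± 0.14, Jund -0.06 ± 0.18 and Fosb 0.01 ± 0.23. Fos had 12.80 and 12.72 in BXD28, against 12.07, 12.93 and 13.24, with 15 other arrays above both and 5 below both. Egr2, a zinc finger factor, ran the other way with 8.12 and 8.42, against 7.20, 7.88 and 8.34, a difference of 0.47 ± 0.21 (limma adjusted p = 0.999).

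Among the inhibitors and feedback regulators, Nfkbia, which holds NF-κB in the cytoplasm, had 7.99 and 6.73 in BXD28, against 7.50, 8.49 and 9.89, a difference of -1.21 ± 0.42 (limma adjusted p = 0.709). Without the second BXD28 array it gave -0.57, and the dimmer Nfkbia probe set gave -0.28 ± 0.19. Btg2, an antiproliferative cofactor of mRNA deadenylation, had 9.45 and 9.46, against 9.19, 9.96 and 10.70, a difference of -0.52 ± 0.15 (limma adjusted p = 0.282). Dusp1, a phosphatase that turns off MAP kinases, had 10.48 and 10.13, against 9.65, 10.87 and 11.52, a difference of -0.48 ± 0.17. Ier2 gave -0.66, with 10.49 and 10.39 in BXD28, against 10.34, 11.01 and 12.18. Gadd45b, at 7.03 and 8.37, and Atf3, at 6.65 and 7.58, gave -0.63 and -0.60, and both rested on the first BXD28 array: without it Gadd45b gave 0.05 and Atf3 -0.14. Nr4a2, Egr1 and Ier3 gave -0.46, -0.42 and 0.02. The dimmer probe sets of Atf3 and Egr1 gave 0.80 ± 0.62 and 0.61 ± 0.53, opposite in sign to the brightest ones.

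**Figure D3:**
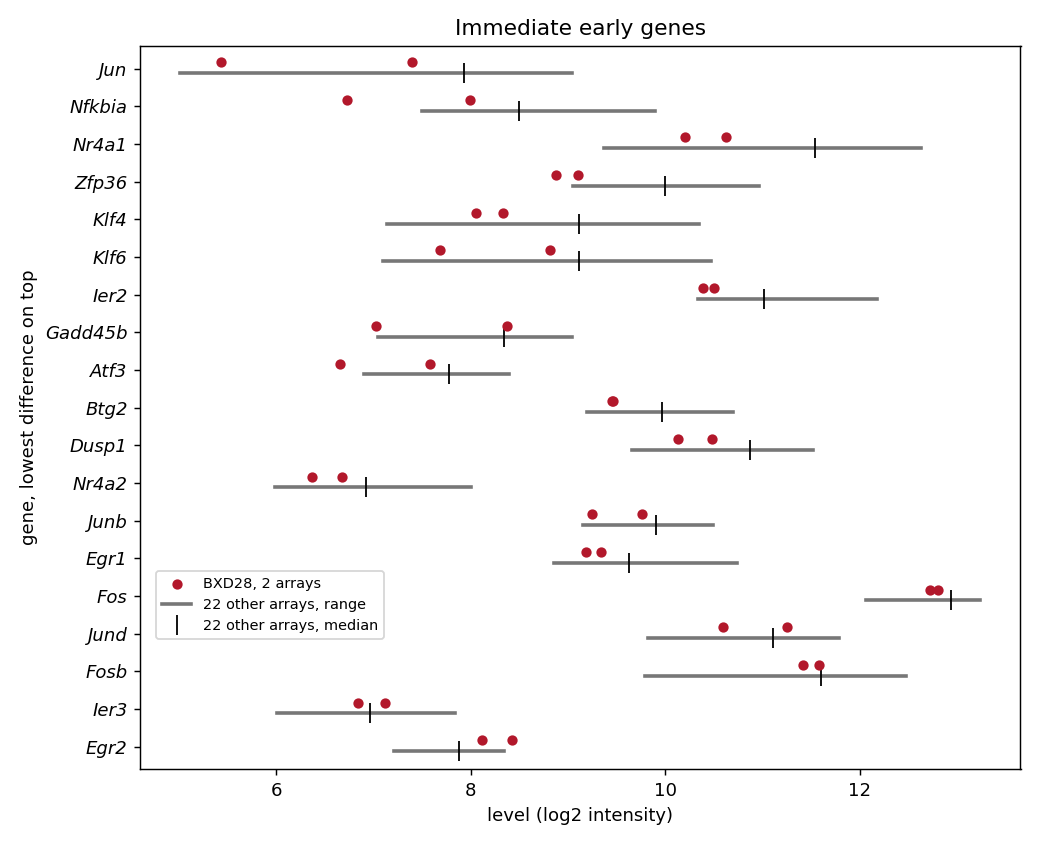
Level (log2 intensity, x axis) of the 19 tested immediate early genes, ordered by the difference of BXD28 from the other strains, with the lowest on top. Red points are the 2 BXD28 arrays, the grey bar spans the 22 other arrays and the black tick is their median. Zfp36 lies at the low end of its bar, and Fos, Jund, Fosb and Ier3 lie near the medians.

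The level of the list varied widely over strains, and BXD28 was not at its end. The mean of the 19 genes was 8.979 and 8.951 on the BXD28 arrays, against 8.564, 9.555 and 10.08 as the lowest, median and highest of the 22 others. BXD19 was the lowest strain at 8.571, BXD28 second at 8.965 and BXD39 next at 9.005, while BXD2 was highest at 10.034. Arrays of one strain differed by 0.011 to 0.209, with a median of 0.04 and 0.028 in BXD28, and strain means spanned 1.463. With strain means as the unit, 2 of the 19 genes were lower at an unadjusted p under 0.05 and 0 were called. Against all 21 other strains the counts were 5 and 0, and the median difference was -0.164. The 2 arrays of a strain have consecutive numbers, and the labels do not name the day of each sort, so strain and handling cannot be told apart.

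**Figure D4:**
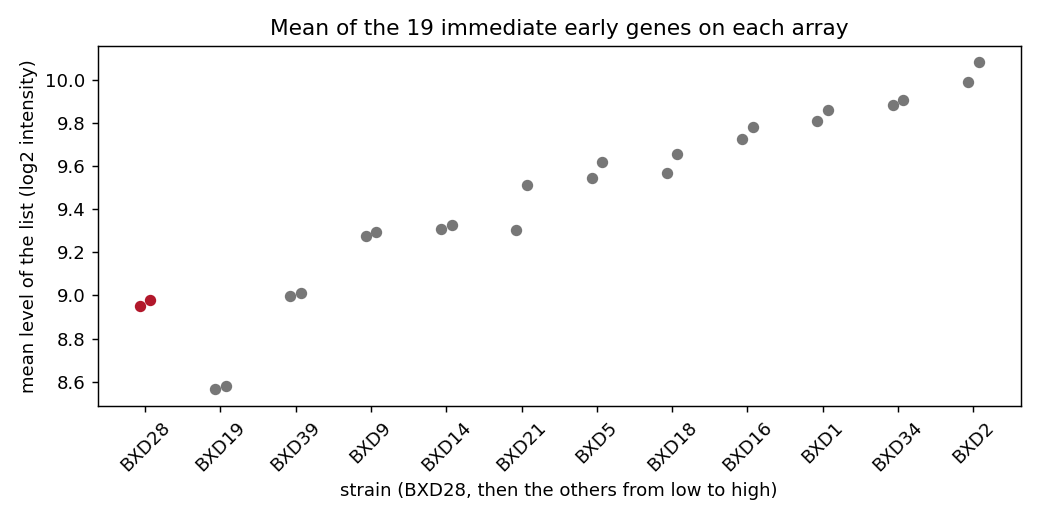
Mean log2 intensity of the 19 immediate early genes (y axis) on each array, by strain (x axis), with BXD28 in red on the left and the other 11 strains in order of their means. BXD28 lies between BXD19 and BXD39, and the 2 arrays of each strain lie close together.

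Beyond single calls, some genes had both BXD28 arrays outside all 22 others. Both arrays were above all others in 15 probe sets (0.201%) and below all others in 6 (0.0805%). Over genes these were 13 of 5624 (0.231%) and 5 (0.0889%), and none of them passed the adjusted threshold. Among so many genes some such orders arise without a strain difference, and how many was not estimated. Eci1, a mitochondrial isomerase of fatty acid oxidation on chromosome 17, had 4.94 and 4.93 in BXD28, against 4.97, 6.43 and 8.30, a difference of -1.56 ± 0.45 (limma adjusted p = 0.336). Ppp2r1a, the scaffold subunit of protein phosphatase 2A, had 8.73 and 7.96, against 8.84, 9.10 and 9.79, a difference of -0.79 ± 0.20 (limma adjusted p = 0.149). Padi2, a peptidylarginine deiminase, Slc39a1, a zinc importer, and Trgv1, a T cell receptor gamma segment, gave -1.18 ± 0.41, -1.09 ± 0.35 and -0.83 ± 0.26.

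On the high side, Adpgk, an ADP-dependent glucokinase on chromosome 9, had 7.77 and 7.80 in BXD28, against 6.27, 6.95 and 7.65, a difference of 0.79 ± 0.23 (limma adjusted p = 0.42). Ppid, a cyclophilin that assists Hsp90, had 11.61 and 11.61, against 10.19, 11.11 and 11.56, a difference of 0.63 ± 0.19. Scd2, a fatty acid desaturase, gave 0.54 ± 0.18, Snhg5, a host gene of small nucleolar RNAs, 0.70 ± 0.25, and Vdac2, a channel of the outer mitochondrial membrane, 0.62 ± 0.27. The largest difference on this side was that of Mrpl35, a mitochondrial ribosomal protein, at 0.90 ± 0.39, and the others (Ccdc186, Akap17b, Otud4, Ift20, B4galt1 and Amot) lay between 0.37 and 0.79. Most of the genes on this side exceeded the highest other array by a small margin only.

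The genes that varied most among the other strains show which level BXD28 carries. Of the 10 with the largest spread of strain means, chosen without BXD28, Hars, Pdxdc1, Cnn3 and Erdr1 are described above. H2-Ea, which encodes one chain of the class II complex I-E, is silent in C57BL/6 mice through a deletion at its start and active in DBA/2 mice. It had 9.76 and 8.80 in BXD28, against 4, 7.76 and 9.36 in the others, a difference of 2.33 ± 0.64 (limma adjusted p = 0.26). BXD28 had the highest of 12 strain means, at 9.28, but BXD5 was level with it at 9.26. BXD1, BXD21 and BXD34 also lay within 1 log2 unit of BXD28. H2-Aa, another class II alpha chain, had 8.07 and 6.01, against 4, 6.29 and 8.95, so its BXD28 arrays differed by more than 2 log2 units. Ccr2, a chemokine receptor of monocytes, had 7.34 and 6.55, against 5.19, 8.87 and 10.77, a difference of -1.41 ± 0.36 (limma adjusted p = 0.163) in the lower part of the strains. Agtrap, which binds the angiotensin receptor, had 4.34 and 5.54, against 4.04, 6.75 and 9.11, a difference of -2.15 ± 0.56 (limma adjusted p = 0.163), with BXD21 alone within 1 log2 unit. Gnb4, a G protein beta subunit, and Bub1, a mitotic checkpoint kinase, gave 0.94 ± 0.53 and -0.74 ± 0.48, both well inside the range.

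Genes of antigen presentation lay mostly above the other strains' mean, with 0 called. For class I and peptide loading, 9 of 12 tested genes were above it (54.3% of all genes were), 2 were higher at an unadjusted limma p under 0.05 (1.69% of all genes were), and the median difference was 0.179. Cd1d2, which presents lipids, had 8.54 and 8.54 in BXD28, against 5.07, 6.95 and 8.89, a difference of 1.46 ± 0.54 (limma adjusted p = 0.864). H2-M3, which presents formylated peptides, had 9.78 and 9.20, against 8.15, 8.94 and 9.35, a difference of 0.62 ± 0.24. For class II, 6 of 9 were above the mean, 1 (H2-Ea) was higher at an unadjusted p under 0.05, and the median difference was 0.258, or 0.072 without the first BXD28 array and 0.479 without the second.

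Interferon genes gave no calls. Of 25 tested response genes, 0 passed, 2 were higher at an unadjusted limma p under 0.05 (1.69% of all genes were) and 0 were lower. Their median difference was 0.137, or -0.009 without the first BXD28 array and 0.198 without the second. Rsad2, which encodes the antiviral enzyme viperin, had 8.25 and 8.15 in BXD28, against 4.93, 7.42 and 8.97, a difference of 0.88 ± 0.43. Mx1, an antiviral GTPase, had 7.22 and 7.21, against 5.58, 6.57 and 7.93, a difference of 0.65 ± 0.30. Of 15 signalling genes 0 had an unadjusted p under 0.05, with a median of 0.107. Usp18, Ifi204 and Irf9 had the next largest differences, 0.58, 0.57 and 0.41, and Irf1, Isg20, Socs3, Psmb10 and Ifi35 the lowest, -0.43, -0.34, -0.34, -0.27 and -0.25.

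Markers of B cells and antibody-secreting cells were the marker list with the most members at an unadjusted p under 0.05, which are 4 of 15 tested, all higher, where 1.69% of all genes were. Of the 15, 10 were above the other strains' mean and 0 were called, and the median of 0.253 was 0.488 without the first BXD28 array and 0.148 without the second. Ighm, the heavy chain of IgM, had 11.95 and 11.21 in BXD28, against 9.35, 10.50 and 12.28, a difference of 1.00 ± 0.39 (limma adjusted p = 0.999). Jchain, which joins secreted IgM and IgA, had 10.05 and 9.86, against 8.27, 8.75 and 10.38, a difference of 0.96 ± 0.30 (limma adjusted p = 0.482). Igha, the IgA heavy chain, gave 0.90 ± 0.36, and Vpreb1, a surrogate light chain of early B cells, 0.46 ± 0.21. Other arrays reached higher than both BXD28 arrays for Ighm, Jchain and Igha. Dntt, the nucleotide-adding enzyme of early lymphoid progenitors, had 11.56 and 11.94, against 9.80, 11.61 and 11.99. The 5 members below the mean were Rag1, a recombinase of antigen receptor genes, at 6.86 and 8.53 against 7.74, 8.44 and 9.48 (-0.85 ± 0.45), Cd24a, a surface glycoprotein, at 11.07 and 10.18 against 10.19, 10.85 and 11.10 (-0.19 ± 0.22), and Pax5, Cd79b and Igll1 at -0.12, -0.12 and -0.01. The list thus ran both ways, and Rag1 had the lowest of 12 strain means in BXD28. The summed level of the 15 markers was 12162 and 10791 intensity units, against 7054 to 13498. Ebf1, a defining factor of the lineage, was too dim to test, with intensities of 5.80 and 8.10 in BXD28. It was under the floor of 16 on the other arrays too (5.5 to 15.8). Rag2 and Cd22, also too dim, had 23 and 24.5 (15.1 to 45.5 in the others) and 18.9 and 27.3 (14.1 to 52.4). Whether fewer or more cells of a type were present, or less or more RNA per cell, cannot be told apart in pooled cells.

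The other marker lists had 0 calls each, with summed levels inside the other arrays' range or near its low end. The 15 neutrophil and monocyte markers summed to 8399 and 10018, against 8246 to 14813, with a median difference of -0.10. Itgam, which the sort removes, had intensities of 13.3 and 20.8, against 11.9 to 37.4 in the others. The 9 endothelial and stromal markers summed to 3145 and 4842, against 3217 to 5478, and the first BXD28 array lay just under that range. The median differences were 0.131 for 6 erythroid, -0.177 for 4 megakaryocyte, -0.028 for 6 macrophage and dendritic, -0.168 for 10 T and NK, and 0.239 for 5 mast cell markers. The 2 brightest tested markers of each type showed no call. Among neutrophil markers, Camp, a granule peptide, had 10.06 and 10.45 in BXD28, against 10.08, 10.53 and 11.28, and S100a8, a calcium-binding protein, had 10.61 and 11.13, against 10.38, 10.83 and 11.70. Among macrophage markers, Apoe had 8.06 and 5.90, against 5.69, 8.16 and 9.71, and C1qb, a complement subunit, had 8.69 and 9.01, against 7.81, 8.53 and 8.91. The second C1qb value lay just above the others' range and the first Camp value just under it, and the Apoe arrays lay more than 2 log2 units apart. Car2, an erythroid carbonic anhydrase, had 11.10 and 10.20, against 9.86, 10.58 and 11.50, and Tfrc, the transferrin receptor, had 9.66 and 10.62, against 9.73, 10.47 and 11.09, so its first array lay just under the range. The megakaryocyte markers Nfe2, a transcription factor, and Gp9, a platelet glycoprotein, gave -0.10 ± 0.14 and -0.43 ± 0.29. The lymphocyte markers Thy1 and Klrk1, both surface proteins, gave -0.21 ± 0.27 and -0.31 ± 0.33. The mast cell proteases Cpa3 and Tpsb2 gave 0.50 ± 0.33 and -0.04 ± 0.18. Col1a2, a collagen chain of stroma, and Emcn, an endothelial sialomucin, gave -0.14 ± 0.27 and 0.31 ± 0.27. None of these exceeded 1 log2 unit apart from Apoe, with -1.11 ± 0.55. The part of such cells in the results above was not tested.

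**Figure D5:**
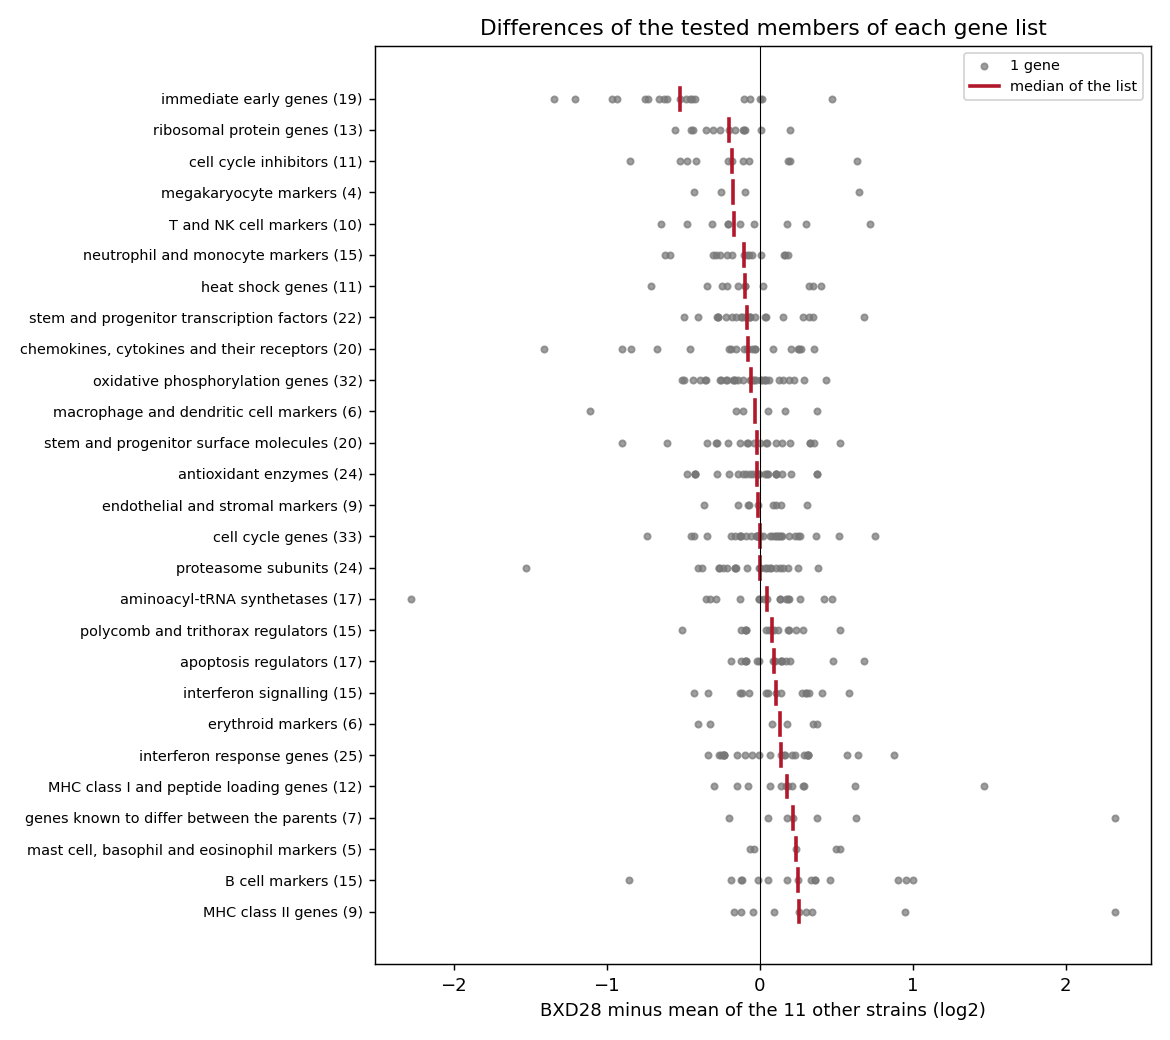
Difference of BXD28 from the mean of the 11 other strains (log2, x axis) for each tested member (grey point) of the gene lists with at least 3 tested members (y axis, number tested in brackets), with the median of each list in red. The immediate early genes have the lowest median, at -0.524, and the MHC class II genes and B cell markers lie on the high side, at 0.258 and 0.253.

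Stem cell, housekeeping and cycle genes gave 0 limma calls. Among 20 surface molecules of stem and progenitor cells, 2 were lower at an unadjusted limma p under 0.05 (2.2% of all genes were) and the median was -0.017. Adgrg1, the adhesion receptor GPR56, had 9.64 and 9.40 in BXD28, against 9.45, 10.42 and 11.36, a difference of -0.90 ± 0.22 (limma adjusted p = 0.101), the lowest of 12 strain means. Cd27, a costimulatory receptor, had 9.10 and 9.40, against 8.99, 10.09 and 10.61, a difference of -0.61 ± 0.26. The 22 stem cell transcription factors had 0 at that level and a median of -0.083.

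The 33 cell cycle genes had a median of -0.001, with Ccnd2, cyclin D2, at 8.62 and 8.23 in BXD28, against 6.96, 7.75 and 8.29, a difference of 0.75 ± 0.28 (limma adjusted p = 0.854). Among 11 cell cycle inhibitors (median -0.178), 2 were lower at an unadjusted p under 0.05 (2.2% of all genes were), Btg2 and Cdkn1a. Cdkn1a, the inhibitor p21, had 7.09 and 7.33, against 6.00, 8.18 and 9.35, a difference of -0.85 ± 0.35. Of the 13 ribosomal protein genes, 11 were below the other strains' mean (45.7% of all genes were), with a median of -0.199, which was -0.458 without the first BXD28 array and -0.078 without the second, and 1 member (Rps18, -0.45 ± 0.20) at an unadjusted p under 0.05. Psmb6, a catalytic proteasome subunit, had 5.16 and 5.15, against 4.97, 7.03 and 8.71, a difference of -1.53 ± 0.42 (limma adjusted p = 0.282), in a list of 24 with a median of -0.001. Antioxidant enzymes (24, median -0.015) and heat shock genes (11, -0.094, but 0.175 without the second BXD28 array) lay near the median of all genes. So did apoptosis regulators (17, 0.091) and polycomb and trithorax regulators (15, 0.081). The 32 oxidative phosphorylation genes had a median of -0.059, with 20 below the other strains' mean. BXD28 had the lowest strain mean in 7 of these 32, and in 276 of all 5624 genes. The 20 chemokines, cytokines and receptors had a median of -0.079, which was 0.051 without the first BXD28 array. Of these 20, 14 were below the other strains' mean, and Ccr2 was the 1 lower at an unadjusted p under 0.05. Their mean level was the lowest of 12 strains in BXD28, at 7.215 and 7.329, against 7.2 to 7.756 on the other arrays.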

How the data were processed

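RNA of sorted LSK cells from 22 BXD strains was measured on 44 one-colour Affymetrix MG_U74Av2 arrays, 2 per strain. The authors' deposited values are intensities on a linear scale, 1 per probe set and array, with a 2% trimmed mean of 200.071 to 200.092 on every array, and the software that made them is not given in the sources used here. Array medians on the log2 scale ran from 6.56 to 6.83, and the number of arrays limits precision. Grouping followed the strain in the titles. Values under 16 were set to 16 (log2 of 4), log2 transformed and quantile normalized, and 66 control probe sets of 12488 and those under the 40th percentile of mean level (6.00) were left out, leaving 7453. With limma 3.58.1 in R 4.3.3, 1 mean per strain was fitted on all 44 arrays (22 residual degrees of freedom, 4.373 prior), and BXD28 was contrasted with the unweighted mean over the 11 series B strains beside it, with Benjamini-Hochberg adjustment over all probe sets and a threshold of 0.05. The fit was tested on simulated data with planted changes in BXD28. All strains otherwise shared the same mean there, so the test does not bear on spread between strains. Symbols came from the platform annotation, updated by Entrez identifier to GRCm38.p6. Of 12422 probe sets 10833 had 1 symbol, 396 several and 1193 none, and 10817 were matched. The brightest tested probe set stood for a gene (5624). Genes were named by rule: called genes, then genes with both BXD28 arrays outside all others up to 15 per direction, called list members, the 10 most variable genes chosen without BXD28, the 5 largest interferon differences per direction, the sort markers and the 2 brightest markers of each cell type. Other members were taken to illustrate their lists, after their values were seen. The gene lists, the comparison and its alternatives were chosen with earlier results of these data known. Alternatives varied the normalization, floor, filter, variance, comparison strains and arrays. Differences are log2, BXD28 minus the others, ± SE, and p-values are two-sided.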

Additional observations from a re-analysis of the deposited data

How the results depend on the processing

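The main result is 16 called probe sets (4 higher, 12 lower), with 2 called list members, 12 immediate early genes lower at an unadjusted p under 0.05, 1 of them called, and a median difference of the immediate early genes of -0.524. None of the 16 called differences changed sign, while 5 uncalled immediate early genes (Fos, Fosb, Gadd45b, Ier3 and Jund) and the medians of 13 lists did under at least 1 alternative, such as that of the mast cell markers (0.239, and -0.038 at the 60th percentile). Taking the 12 strain means as units left 0 called probe sets (0 higher, 0 lower), 0 list members, 2 immediate early genes lower and 0 called, and every one of the 16 calls was lost there. Against all 21 other strains the counts were 1 list member, 5 lower and 0 called, with a median of -0.164. Without BXD40 and BXD42, which hold the other array code, 25 probe sets were called, 7 of them higher, with 6 list members and 2 immediate early genes. With series B alone 7 were higher and 5 list members were called, and without a filter 10 were higher. Filtering at the 60th percentile gave 1 list member and a median of -0.605. That median was also -0.456 over all probe sets, -0.499 with median centring, -0.593 without strain BXD19, -0.57 without BXD9, -0.573 without BXD39, -0.462 without BXD2, -0.472 without BXD1, -0.495 without BXD5, and -0.553 with the Gapdh ratio as covariate, an alternative that, like odd against even array number, was chosen after seeing the data. With single arrays left out, 9 to 26 probe sets were called (2 to 5 higher, 7 to 23 lower), 1 to 3 list members, 7 to 12 immediate early genes lower, 0 to 2 called, with a median of -0.536 to -0.502. Both ends of the total came from BXD28: 26 without its first array and 9 without its second. In such fits the lone array is assumed to vary like those of other strains. Erdr1, Hars, Ctse, 93321_at, 96215_f_at and 97282_at kept their calls under every alternative in which they were tested, except the strain means. No paired analysis was possible because the labels give no replicate numbers shared between strains. The odd against even term, which sets a strain's first array against its second, gave 20 called probe sets (5 higher, 15 lower) and kept all 16 calls. The first array had the higher Gapdh ratio in 10 of 12 strains. A batch term was not run, since the scanner parameter files name only the chip type. The causes of these changes were not tested.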
